A study of Rattus norvegicus with 8 samples.

Results

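The Myc network and the Id factors are helix-loop-helix proteins that act as pairs. Their transcripts were followed in NR8383 cells, a macrophage line started from rat lung lavage. The set holds 10 genes, Myc, Mycl, Max, Mxd1, Mxi1, Mnt, Mlx, Id1, Id2 and Id3, of the 13460 features tested. It was chosen because Myc and Id1 had been seen to be lower at the higher dose. The dose differences of the members are therefore given below as descriptions, without a test.

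Cells were exposed for 4 h to ZnO at 16 µg/mL (4 arrays, from cultures described as 200 passages old) or at 4 µg/mL (4 arrays, described as 20 passages old), and untreated cells were not analysed here. The series' design calls the 4 samples of each dose biological replicates. The arrays of a dose shared 1 slide and 1 scan that the other dose did not use. The dose therefore cannot be told apart from the slide, the scan or the number of passages in any value below. All samples came from 1 cell line grown in the same serum-containing medium.

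Myc pairs with Max to bind the E-box, a short DNA motif, and turns on genes of growth, ribosome production and metabolism. Mxd1, Mxi1 and Mnt compete for Max and bring in Sin3 corepressors, while Mlx is the partner of the glucose-sensing factors of the Mondo family as well as of some Mxd proteins. Id proteins carry the helix-loop-helix but lack the DNA-binding stretch, and they hold E proteins such as Tcf3 off DNA. Id1 is a well-known target of BMP and Smad signalling, and Myc is an early growth-factor-induced gene in macrophages.

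Upstream sequences were available for 9 of the 10 genes, all but Myc, in the RefSeq table of build GRCr8. The upstream sequence of Myc was therefore not searched. The 3 stretches of 200 bases that follow are shown because the levels of Id1, Id2 and Mxd1 did not overlap between the doses and each holds a CCAAT box. Mlx, which shares both features, is shown further on for its E-box. Capitals mark TATAAA and the CCAAT box, which reads ATTGG where it lies on the other strand. All are written 5′ to 3′ on the strand of the gene and end 51 bases before its start.
Id1, chr3:161671314-161671513, plus strand: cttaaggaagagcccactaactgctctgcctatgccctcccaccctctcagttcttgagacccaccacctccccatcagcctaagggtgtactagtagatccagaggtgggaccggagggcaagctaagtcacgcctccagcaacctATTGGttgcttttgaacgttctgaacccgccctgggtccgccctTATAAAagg
Id2, chr6:47471046-47471245, minus strand: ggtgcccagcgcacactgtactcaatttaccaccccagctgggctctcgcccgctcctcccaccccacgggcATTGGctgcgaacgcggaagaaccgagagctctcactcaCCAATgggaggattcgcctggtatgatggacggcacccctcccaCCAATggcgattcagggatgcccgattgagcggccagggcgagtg
Mxd1, chr4:120675180-120675379, minus strand: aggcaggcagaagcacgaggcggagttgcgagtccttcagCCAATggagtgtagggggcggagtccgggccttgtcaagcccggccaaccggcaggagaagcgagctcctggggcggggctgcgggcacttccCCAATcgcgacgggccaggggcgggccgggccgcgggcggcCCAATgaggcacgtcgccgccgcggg

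Id1 held 1 CCAAT box, 103 to 99 bases before its start, and a TATAAA 59 to 54 bases before it. Id2 and Mxd1 held 3 CCAAT boxes each. On both strands of the 250 bases before the start, CCAAT was found in 4 of the 9 members and in 34% of 33469 rat promoters, and TATAAA in 2 members (Id1 and Mycl) and 12.9% of promoters. The GC content of that window was 54.8% for Id1, 62.8% for Id2 and 73.2% for Mxd1, with a median of 51.2% over all promoters.

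The E-box letters CACGTG were found upstream of 3 members, all of them partners in the Max and Mlx network, and in 5.59% of all promoters. The 60 bases around each are shown because they hold the motif that the network itself binds, in capitals. In Mlx a CCAAT box on the other strand is also capitalised.
Max, chr6:101395291-101395350, minus strand: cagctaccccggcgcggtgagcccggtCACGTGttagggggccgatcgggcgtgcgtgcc
Mnt, chr10:60197809-60197868, plus strand: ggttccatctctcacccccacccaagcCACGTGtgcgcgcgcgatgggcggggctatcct
Mlx, chr10:86519789-86519848, plus strand: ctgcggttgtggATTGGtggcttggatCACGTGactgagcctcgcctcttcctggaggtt

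The E-box lay 33 to 28 bases before the start of Max, 123 to 118 before that of Mnt and 70 to 65 before that of Mlx. The Smad element GGCGCC was found in 0 of the 9 windows and in 8.69% of promoters. The core of the cAMP response element, TGACG, was found in Max alone among the 9 and in 18.2% of promoters. No match overlapped a match of another motif. These letters are descriptions of the windows and say nothing of binding.

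Each array held 62976 spots, and 31.5% to 35.8% of probes on the 16 µg/mL arrays and 31.8% to 39.3% on the 4 µg/mL arrays were well above background, the scanner software's own call of a detected spot. The 75th percentile of the processed signal ran from 151 to 381 at 16 µg/mL and from 313 to 516 at 4 µg/mL. Levels are log2 signals relative to that percentile, with 0 at the percentile, and differences are ZnO 16 minus ZnO 4. Levels of different probes cannot be set against each other. Correlations across genes were 0.969 to 0.986 among the 16 µg/mL arrays, 0.973 to 0.991 among the 4 µg/mL arrays and 0.915 to 0.947 between doses. Of 12 macrophage markers 10 were well above background on all 8 arrays, while Marco and Adgre1, both markers of tissue macrophages, were so on none. The summed macrophage marker level was 8.43 to 8.80 at 16 µg/mL and 8.39 to 8.63 at 4 µg/mL. Single markers differed in both directions under that sum. The mean level of Cd68 was 3.26 at 16 µg/mL and 5.00 at 4 µg/mL, and that of Mrc1 -2.19 and -1.70. That of Spi1 was 1.74 at 16 µg/mL and 0.93 at 4 µg/mL. Of the endothelial markers 3 of 5 (Pecam1, Cdh5 and Vwf) were well above background on all arrays, and Tek and Kdr on none. Their summed level was 2.36 to 2.88 at 16 µg/mL and 3.38 to 3.73 at 4 µg/mL, and its part in any difference below was not tested. Epithelial and neutrophil markers had 0 of 8 and 0 of 4 detected on every array, and Epcam, Cdh1, Krt8, Krt18 and Krt19 were detected on none. The summed epithelial level was -2.86 to -2.19 at 16 µg/mL and -2.97 to -2.31 at 4 µg/mL, and the neutrophil level -4.30 to -3.40 at 16 µg/mL and -3.90 to -3.12 at 4 µg/mL. The lymphocyte markers had 0 of 5 detected on every array, with a summed level of -3.59 to -2.76 at 16 µg/mL and -2.24 to -2.06 at 4 µg/mL, and while Cd3d was detected on 7 of 8 arrays, Cd3e and Cd79b were among those detected on none. Among the 6 fibroblast markers Dcn alone was detected on every array, and their summed level was -1.98 to -1.58 at 16 µg/mL and -1.78 to -0.93 at 4 µg/mL.

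All 10 genes had a probe, 12 probes in all, and 8 genes passed the filter, which asked for detection (well above background) on 3 or more arrays of either dose. Myc, Max, Mxd1, Mxi1, Mnt, Mlx and Id2 were well above background on all 8 arrays. Id1 was so on 1 of 4 arrays at 16 µg/mL and 4 of 4 at 4 µg/mL, and it passed the filter through the lower dose. Mycl and Id3 did not pass. The levels of 7 members did not overlap between doses, 4 of them lower (Myc, Id1, Mxi1 and Id2) and 3 higher (Mxd1, Max and Mlx) at 16 µg/mL, where 39.9% of all features did not overlap, 21.4% lower and 18.5% higher. Max and Mlx turn lower without scaling and with spike-in scaling. The members were chosen on this contrast, so nothing is read from that count.

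**Figure D1:**
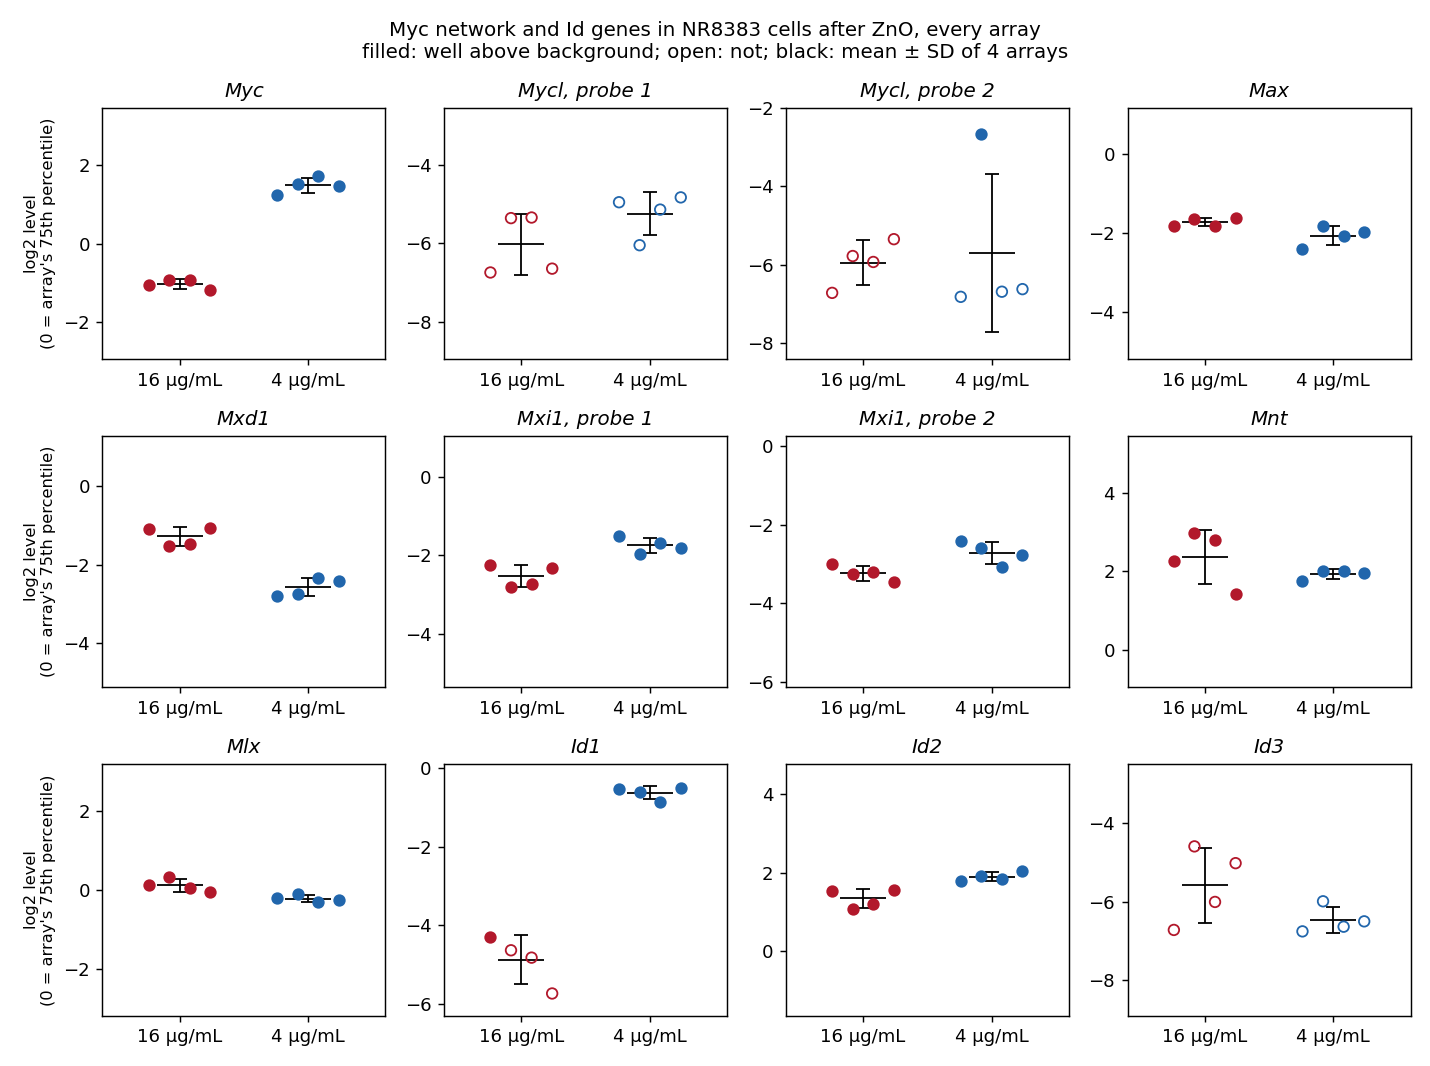
Level of each member probe on every array (y axis, log2 signal relative to the array's 75th percentile; all panels span the same number of log2 units), with ZnO at 16 µg/mL on the left and at 4 µg/mL on the right. Points run from replicate 1 to 4, open points were not well above background, and black bars are mean ± SD of 4 arrays. The doses are separated by 2.16 for Myc and 3.42 for Id1. Mycl and Id3 sit near or below background, except probe 2 of Mycl on replicate 2 at 4 µg/mL.

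Myc itself, the transcription factor at the centre of the network, was low at the higher dose. Its level was -1.06, -0.91, -0.93 and -1.19 on the 16 µg/mL arrays (replicates 1 to 4), against 1.24, 1.52, 1.72 and 1.47 on the 4 µg/mL arrays. All 16 µg/mL arrays lay below all 4 µg/mL arrays, with a gap of 2.16 between the nearest arrays of the 2 doses. The means were -1.02 ± 0.13 at 16 µg/mL and 1.49 ± 0.20 at 4 µg/mL (SD, n = 4 each), a difference of -2.51 (SE 0.14), or 5.69-fold lower at 16 µg/mL. The unscaled processed signal was 179, 81, 100 and 168 at 16 µg/mL and 1224, 896, 1577 and 1187 at 4 µg/mL, so the doses were also apart before scaling. Myc has 2 spots on each array, and these differed by 0.0683 to 0.297 on the log2 scale. Of all features, 1.72% had a lower difference than Myc, which was chosen for being lower, so nothing is read from that rank. Mycl, the L-Myc paralog, gave no dose value: probe 1 was detected on none of the 8 arrays, and probe 2 on 1 array, replicate 2 at 4 µg/mL. Probe 1 of Mycl ran from -6.74 to -5.35 at 16 µg/mL and from -6.05 to -4.83 at 4 µg/mL, and probe 2 from -6.71 to -5.35 at 16 µg/mL and from -6.81 to -2.68 at 4 µg/mL.

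Max, the obligate partner of Myc and of the Mxd proteins, had levels at the 2 doses that lay next to each other. Its level was -1.82, -1.65, -1.82 and -1.62 at 16 µg/mL, against -2.40, -1.83, -2.09 and -1.96 at 4 µg/mL. The doses did not overlap, but the gap between them was 0.0138. The difference was 0.34 (SE 0.17).

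Among the Max partners that repress, Mxd1 and Mxi1 lay on opposite sides. Mxd1, the Mad protein linked to myeloid differentiation, had levels of -1.08, -1.52, -1.47 and -1.06 at 16 µg/mL, against -2.79, -2.75, -2.33 and -2.43 at 4 µg/mL. Every 16 µg/mL array was above every 4 µg/mL array, by at least 0.814. The means were -1.28 ± 0.24 at 16 µg/mL and -2.58 ± 0.23 at 4 µg/mL (SD, n = 4 each), a difference of 1.29 (SE 0.19), or 2.45-fold higher at 16 µg/mL. Without scaling it was 0.54 (SE 0.46) and with spike-in scaling 0.60 (SE 0.43). Mxi1, a related Max-binding repressor, had levels of -2.24, -2.80, -2.74 and -2.31 at 16 µg/mL and -1.51, -1.96, -1.67 and -1.81 at 4 µg/mL on its brighter probe. These did not overlap either, with a gap of 0.284, and the difference was -0.78 (SE 0.19), or 1.72-fold lower at 16 µg/mL. The second Mxi1 probe gave -0.52 (SE 0.21), and there the doses overlapped. With normexp background correction the brighter Mxi1 probe gave -0.17 in place of -0.78.

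Mnt, a broadly expressed Max partner that opposes Myc, varied more between the 16 µg/mL arrays than between doses. Its level was 2.26, 2.98, 2.79 and 1.43 at 16 µg/mL and 1.76, 2.00, 2.01 and 1.94 at 4 µg/mL. The 16 µg/mL arrays lay on both sides of the 4 µg/mL arrays, with an SD of 0.69 at 16 µg/mL against 0.12 at 4 µg/mL. The difference was 0.44 (SE 0.28), and it was 0.75 without replicate 4 at 16 µg/mL and 0.23 without replicate 2 there. Mlx, the partner of MondoA, had levels of 0.13, 0.32, 0.06 and -0.05 at 16 µg/mL and -0.20, -0.10, -0.32 and -0.26 at 4 µg/mL. The doses were apart by 0.0525, and the difference was 0.33 (SE 0.13). Without scaling the differences were -0.41 for Max, -0.32 for Mnt and -0.42 for Mlx, and with scaling to the spike-in probes -0.35, -0.26 and -0.36, so the direction of these 3 genes depends on the scaling. Both settings moved the median of all features, to -0.75 without scaling and to -0.69 with spike-in scaling, against 0.004 as reported.

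Id1 had the largest difference of the 8 measured members, except with normexp correction, where Myc at -2.20 exceeded it. Its level was -4.29, -4.64, -4.83 and -5.74 on the 16 µg/mL arrays and -0.53, -0.61, -0.88 and -0.51 on the 4 µg/mL arrays. The 4 arrays at 4 µg/mL lay together and well above all 16 µg/mL arrays, of which replicate 1 alone was well above background. The means were -4.87 ± 0.62 at 16 µg/mL and -0.63 ± 0.17 at 4 µg/mL (SD, n = 4 each), a difference of -4.24 (SE 0.29). Since 3 of the 4 arrays at 16 µg/mL hold signals near background, that size is uncertain: with every array floored at its lowest well-above-background signal the difference was -3.42, and with normexp correction it was -1.81. The spot was 1.47, 1.11, 1.03 and 1.06 times its local background at 16 µg/mL, against 12.35, 7.60, 9.15 and 10.95 times at 4 µg/mL. Id1 was thus close to the limit of detection at 16 µg/mL and clearly measured at 4 µg/mL. By the difference without a floor, 0.141% of all features lay lower. Id1 was chosen for being lower, so nothing is read from that rank.

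Id2, which was detected on every array, differed less between the doses than Id1. It had levels of 1.54, 1.09, 1.21 and 1.57 at 16 µg/mL and 1.79, 1.92, 1.85 and 2.04 at 4 µg/mL. All 16 µg/mL arrays lay below all 4 µg/mL arrays, with a gap of 0.229. The means were 1.35 ± 0.24 at 16 µg/mL and 1.90 ± 0.11 at 4 µg/mL (SD, n = 4 each), a difference of -0.55 (SE 0.14), or 1.46-fold lower at 16 µg/mL, and normexp correction gave -0.18. Id3, the third of the Id genes, was detected on none of the 8 arrays and ran from -6.72 to -4.60 at 16 µg/mL and from -6.76 to -5.99 at 4 µg/mL.

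Replicates 1 and 4 at 16 µg/mL were the brighter arrays of that dose, with 75th percentiles of 374 and 381, against 151 and 190 for replicates 2 and 3. Mxd1, Id2 and the brighter Mxi1 probe each had their 2 highest 16 µg/mL levels on those 2 arrays, while the second Mxi1 probe was lowest on replicate 4 at -3.46. Myc and Mnt went the other way, with their 2 highest levels on replicates 2 and 3. Max, Mlx and Id1 had theirs on a brighter and a dimmer array. The part of array brightness in these values was not tested.

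**Figure D2:**
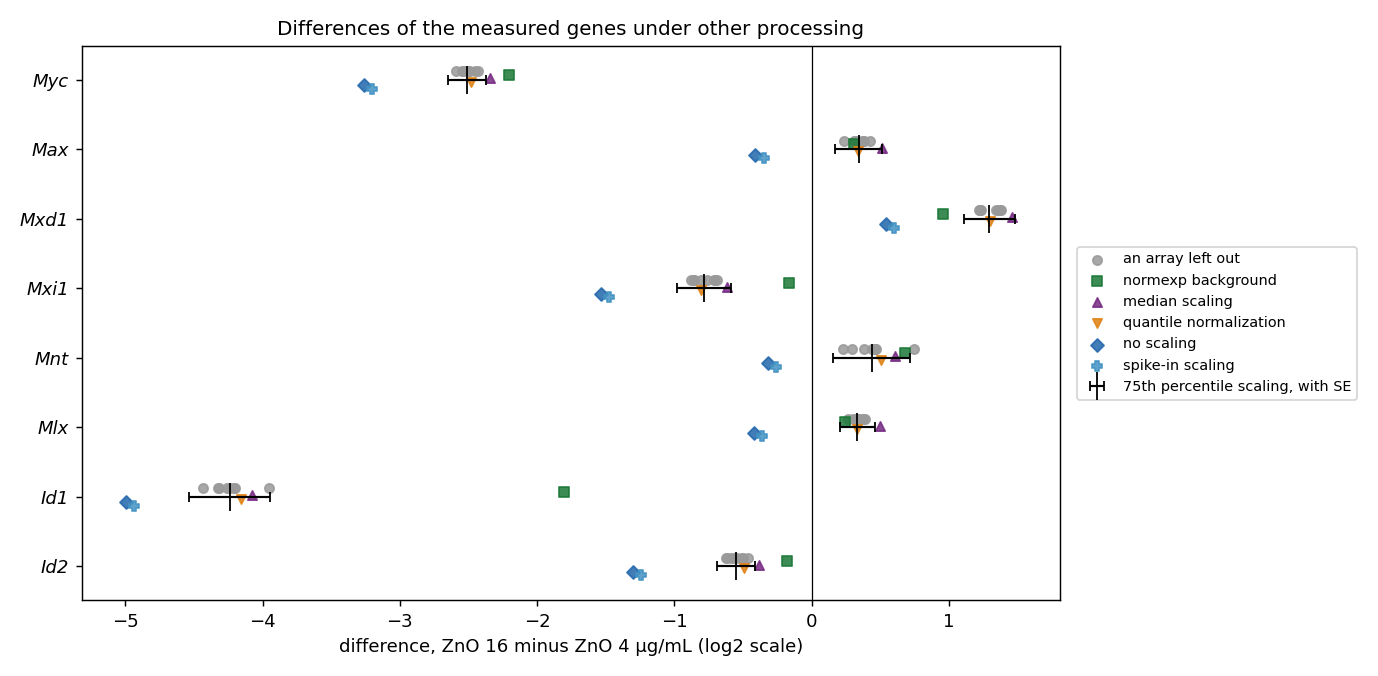
Difference of each measured member, ZnO 16 minus ZnO 4 µg/mL (x axis, log2 scale), under the reported scaling with its SE (black) and under other processing (coloured symbols) or with an array left out (grey). Myc, Mxi1, Id1 and Id2 stay below 0 and Mxd1 above 0 in every setting drawn, while Max, Mnt and Mlx fall below 0 without scaling and with spike-in scaling.

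Genes that work with the network were read from the same limma fit, and in the counts that follow a gene rose or fell when its adjusted p over all features was under 0.05. Over all features 19.8% rose and 21.9% fell, 41.7% together. Without scaling and with spike-in scaling most higher calls were lost: of the genes named below as higher, Gadd45a, Cdkn1a, Arrdc2 and Arrdc4 were called in both, and Ets2 with spike-in scaling. With normexp correction Wdr5, Trrap, Ndrg1 and Tcf12 lost their calls, and with median scaling Kat5, Trim32 and Mrto4 did. Normexp correction also gave smaller differences of 0.94 for Grwd1, 0.81 for Bop1, 0.82 for Slc2a1, 1.03 for Arrdc4, 0.81 for Ddx18, 0.90 for Arrdc2 and -0.93 for Txnip, so the bounds given below hold for the processed signal. Of the other Max and Mlx partners 1 of 6 was measured, the repressor Mxd3, with a difference of 0.44 (adjusted p = 0.0800). Of the Myc cofactors and Mxd corepressors 12 of 15 were measured, 3 rose and 3 fell, with a median difference of 0.08 against 0.004 over all features. Zbtb17 (Miz1), through which Myc represses, rose by 0.95 (SE 0.17), and Wdr5, which anchors Myc to chromatin, by 0.56 (SE 0.12). The acetyltransferase Kat5 fell by 0.54 (SE 0.13), the scaffold Trrap fell by 1.64 (SE 0.23) and the ATPase Ep400 fell by 2.19 (SE 0.27). Trrap and Ep400 were each detected on 1 of 4 arrays at 16 µg/mL, so these sizes are uncertain, and normexp correction gave -0.37 and -0.55. Ruvbl1, Ruvbl2 and Actl6a, which share a chromatin complex with these 3, had differences of 0.11, 0.28 and 0.04 and did not pass. The list's median was -0.00 without replicate 2, 0.04 without replicate 1 and 0.13 without replicate 4 at 16 µg/mL, and 0.14 without replicate 3 at 4 µg/mL.

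Proteins that control the stability of Myc had 8 of 12 genes measured, of which 3 rose and 1 fell, with a median of 0.20 (0.33 without replicate 2 at 16 µg/mL). Usp36, a nucleolar deubiquitinase of Myc, rose by 0.96 (SE 0.22). The ubiquitin ligase Trim32 fell by 0.68 (SE 0.12). Gsk3b, the kinase that marks Myc for degradation, was called higher on its brightest probe at 2.05 (SE 0.51), but the other 3 probes gave -1.18, -0.52 and -0.11, so its direction is not settled.

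Genes that Myc is known to induce were taken as 2 lists. Of the ribosome biogenesis and nucleolar list 24 of 25 were measured, 11 rose and 2 fell (54.2% called), with a median of 0.38. Grwd1, a ribosome assembly chaperone, rose by 1.48 (SE 0.20) and Bop1, a factor of large-subunit maturation, by 1.43 (SE 0.23). Ddx18, a nucleolar helicase not well above background at 4 µg/mL, was at least 2.17-fold higher at 16 µg/mL (adjusted p = 0.00373). It passed the filter through the 16 µg/mL arrays alone, and its adjusted p rests on signals near background at 4 µg/mL. Ubtf, the RNA polymerase I factor, fell by 0.80 (SE 0.16) and Mrto4, a stalk assembly factor, fell by 0.54 (SE 0.11). A second Ubtf probe gave -0.20 and did not pass.

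The growth and metabolism list had all 28 genes measured, of which 14 rose and 0 fell (50% called), with a median of 0.41. Without replicate 2 at 16 µg/mL 11 rose and 2 fell, and with normexp correction 14 rose and 1 fell. With each gene's probes averaged 13 rose and 0 fell, and with a block by replicate number in the fit 15 rose and 1 fell. The glucose transporter Slc2a1 rose by 1.42 (SE 0.15), the spermidine synthase Srm by 1.30 (SE 0.23) and the glutamine transporter Slc1a5 by 1.18 (SE 0.16). The other 3 Srm probes gave 1.18, 1.34 and 1.46. Without scaling and with spike-in scaling both Myc-induced lists had 0 genes called higher and 3 called lower. Their medians relative to that of all features stayed between 0.22 and 0.43 for the ribosome list and between 0.24 and 0.49 for the growth list in the 21 alternatives run.

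Of 14 genes that Myc is known to repress 11 were measured, 3 rose and 1 fell, with a median of 0.07 that was -0.00 without replicate 3 at 16 µg/mL, 0.01 and 0.03 without replicate 1 and replicate 4 at 4 µg/mL, 0.14 without replicate 1 at 16 µg/mL and 0.16 without replicate 2 at 4 µg/mL. Gadd45a, a growth arrest gene, had a level of 2.30 ± 0.24 at 16 µg/mL and -0.84 ± 0.31 at 4 µg/mL (SD, n = 4 each) and rose by 3.15 (SE 0.18, adjusted p = 9.69e-07). Cdkn1a, the cell cycle inhibitor p21, rose by 1.96 (SE 0.19), its second probe also passing (adjusted p = 0.032), and the stress gene Ndrg1 by 0.60 (SE 0.15). Cdkn1b, the related inhibitor p27, fell by 1.22 (SE 0.14), and its second probe fell by 2.38. Gadd45a, Cdkn1a and Cdkn1b kept their calls in all 21 alternatives.

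The 5 target genes of Mlx and MondoA were all measured, and 3 of them were called, 2 higher and 1 lower, with a median of 0.20 (0.11 without replicate 3 and 0.32 without replicate 4 at 4 µg/mL). That median was 0.47 with each gene's probes averaged, where 3 rose and 1 fell. It was 0.39 with both arrays that hold a low-signal area left out. The arrestin gene Arrdc4 rose by 2.02 (SE 0.16). Its relative Arrdc2 was at least 1.89-fold higher at 16 µg/mL, detected on 3 of 4 arrays there and on none at 4 µg/mL (adjusted p = 0.00167). Txnip, the inhibitor of thioredoxin and the best known MondoA target, was at least 4.55-fold lower, detected on no array at 16 µg/mL and on 3 of 4 at 4 µg/mL (adjusted p = 5.82e-05). Arrdc2 and Txnip each passed the filter only through the dose at which they were detected. Their adjusted p-values rest on signals near background at the other dose.

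Of the BMP receptors, Smads and other BMP targets 9 of 20 were measured, and 1 was called (11.1%): Smurf1, a ubiquitin ligase of the Smad pathway, rose by 0.59 (SE 0.14). The list's median was 0.08, but 0.28 without replicate 2 at 4 µg/mL, 0.16 without replicate 2 at 16 µg/mL and 0.04 without replicate 1 at 4 µg/mL. Among the E proteins and other Id partners 10 of 12 were measured, 2 rose and 1 fell, with a median of 0.05. That median turned to -0.09 without replicate 2 at 4 µg/mL and to -0.03 without replicate 1 or replicate 4 at 16 µg/mL, so it has no settled direction. Ets2, an Ets factor that Id proteins can bind, rose by 1.66 (SE 0.18) and Rb1, the retinoblastoma gene whose protein binds Id2, by 0.79 (SE 0.21). The E protein gene Tcf12 fell by 1.21 (SE 0.28). Tcf3, the E protein that gives E12 and E47, had a difference of -1.34 that did not pass (adjusted p = 0.0679). Its SD was 1.38 at 16 µg/mL against 0.11 at 4 µg/mL, and it was called lower in 6 of the 21 alternatives. The count of called E proteins and partners was 5 in place of 3 without replicate 4 at 16 µg/mL.

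**Figure D3:**
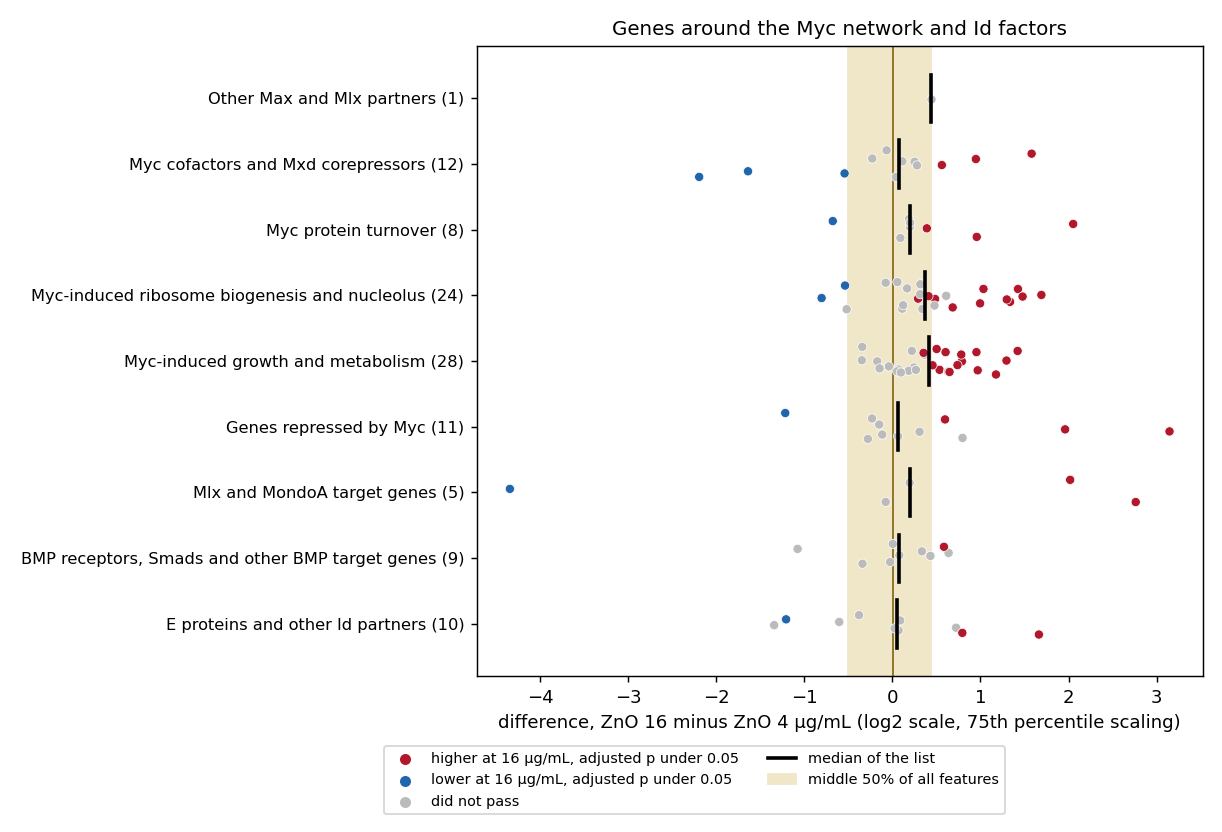
Difference of each measured gene of the lists around the Myc network and the Id factors, ZnO 16 minus ZnO 4 µg/mL (x axis, log2 scale, 75th percentile scaling), 1 point per gene and 1 row per list with the number measured in brackets. Red and blue points passed the limma test and black bars are list medians, which lie at 0.38 and 0.41 for the 2 Myc-induced lists. Without scaling and with spike-in scaling these 2 lists had no gene called higher.

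Likeness to Myc and Id1 was measured as Pearson's r with 7854 features over the 8 arrays, given as a description because the arrays fall into 2 doses and share scaling. The genes most like Myc were Glul at 0.995, Caprin1 at 0.993, Prp25l1 at 0.993 and Ric8a at 0.993. Those most like Id1 were Uqcrb at 0.996, Ugt2a1 at 0.996, Mrpl19 at 0.995 and Hba-a1 at 0.995. When each dose's mean was taken off first, the deviations of Myc ran closest to those of Hspa5 at 0.98, Elk1 at 0.98, Tmem43 at 0.97 and Sgk1 at 0.96. Hspa5, an endoplasmic reticulum chaperone, was itself higher at 16 µg/mL by 0.61 (adjusted p = 0.00228). The deviations closest to those of Id1 were of Polr1g at 0.97, Prkaca at 0.96, Snrnp35 at 0.96 and Fam89a at 0.96. At 16 µg/mL Id1 was well above background on 1 of 4 arrays, so its deviations there rest largely on signals near background. Nothing is read from these 4 names. No gene stood on both lists of Myc or on both lists of Id1.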

How the data were processed

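Per the labels, Cy3-labelled cRNA from total RNA was hybridised to one-colour Agilent arrays, 1 sample each. The submitters' processing notes name Agilent Feature Extraction 11.0.1.1 as the software that wrote the deposited scanner files. The deposited intensity values are processed signals, background-subtracted within each array per the file headers and not normalized between arrays, beside raw spot and local background intensity. Deposited spot flags were also used.

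From these, log2 of the processed signal was taken relative to the 75th percentile of all non-control spots on the array, with flagged spots missing and spots of a probe averaged. No spot was saturated. Symbols came through unversioned accessions from a RefSeq table of GRCr8, which named 21109 of 45598 probes, and its sequences were used for promoters. The kept probe with the highest mean stood for its gene. Differences were fitted with limma 3.58.1 in R 4.3.3 (lmFit, eBayes with intensity trend, two-sided, Benjamini-Hochberg, threshold 0.05) over 13460 features and tested on simulated data. A gene detected on no array of a dose is given as "at least N-fold", the brighter mean against the higher of each array's lowest detected signal and the probe's own. The number of arrays limits the precision.

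The members and lists were chosen with earlier results of these data known. Every member is named. Of each list all called genes are named up to 6, otherwise the 3 largest differences in each direction, except that some items are not reported here, and Mxd3 and Tcf3 were added after their values were seen. For Myc and Id1 the 4 most alike features are named. In 21 alternatives, 1 of them chosen after seeing the data, 1 choice was changed at a time. In bulk RNA, fewer cells of a type and less RNA per cell cannot be told apart.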

Additional observations from a re-analysis of the deposited data

Results flagged for a closer look

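Probe 2 of Mycl (A_64_P068743) had a level of -2.68 on replicate 2 at 4 µg/mL, far above the other 3 arrays of that dose, which ran from -6.81 to -6.62. The gap to the nearest of them was 0.953 of the dose's whole range, above the critical value at 95% of Dixon's test for 4 samples. It was the only array of the 8 on which this probe was well above background, and probe 1 of Mycl was at -6.05 there. Of 24 groups of 4 arrays examined this was the 1 that stood out, and chance gives about 1 in 20.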

How the results depend on the processing

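The called genes over all features, 5612, stayed within 1.5 times of that number in all 21 alternatives (4448 to 5621 with 1 array left out). Higher calls were 47.6% of them as reported, 58.2% with normexp correction, 63.2% with median scaling, 4.93% without scaling and 5.46% with spike-in scaling. Of 167 member differences recomputed, 6 changed direction: without scaling Max gave -0.41, Mnt -0.32 and Mlx -0.42, and with spike-in scaling -0.35, -0.26 and -0.36. Both of these settings shift all genes by the same amount. Relative to the median of all features, the lowest values over the 21 alternatives were 0.16 for Max, 0.21 for Mnt and 0.09 for Mlx. Another 17 differences kept their direction and moved by more than the spread between arrays. Any further cause was not tested.

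Called list genes moved by over 1.5 times in 22 of 189 counts. Without scaling and with spike-in scaling alike, cofactors and corepressors had 3 (6 as reported), Myc turnover 1 (4), ribosome genes 3 (13), growth genes 3 (14) and BMP genes 2 (1). E proteins and Id partners had 5 (3) with spike-in scaling and 5 in the fit with a replicate block. Requiring detection on all 8 arrays left 3 cofactors, 1 Mlx target (3) and 1 E protein or partner, since fewer genes were tested, and gave no value for Id1. Other Max partners had 1 (0) with normexp correction and with median scaling, and BMP genes had 3 with both arrays that hold a low-signal area left out. With 1 array left out the counts ran 0 to 1 for other partners, where Mxd3 was called without replicate 4 at 4 µg/mL, 5 to 6 for cofactors, 3 to 4 for turnover, 11 to 15 for ribosome genes and 10 to 13 for growth genes. They ran 4 to 4 for repressed genes, 3 to 3 for Mlx targets, 1 to 2 for BMP genes (2 without replicate 3 at 16 µg/mL or replicate 4 at 4 µg/mL) and 3 to 5 for E proteins and partners. Same-numbered arrays of the 2 doses did not all deviate together (correlations across genes 0.247, 0.404, -0.221 and -0.029), so the numbers were not taken as pairs. The block by replicate number gave 5472 calls over all features and changed no other list count by over 1.5 times, and 2 of 4 arrays at 16 µg/mL were most like the array of their own number.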
